A study of Mus musculus with 2 samples.

Results

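The genes described here encode the collagen IV chains *Col4a1* and *Col4a2*, the laminin chains *Lamb1* and *Lamc1*, the linker proteins *Nid1* and *Hspg2*, and the collagen-binding protein *Sparc* and the collagen chaperone *Serpinh1*. They were chosen by name as a gene family, 8 of the 18193 genes on the arrays, with the ratio of *Col4a1* already known, so that their ratios are given as a description. Their signals were read at every probe set that names only that gene, 19 probe sets in all. The cells were RAW264.7, a line of mouse macrophages able to become osteoclasts. One culture received scramble siRNA and another *Flcn* siRNA, and both were changed to MEMα with 10% FCS after 24 hours. RNA was taken 48 hours later, and each condition was measured on 1 Affymetrix Mouse Genome 430 2.0 array. Both cultures are of the same line, 1 siRNA sequence was used per condition, and neither the labels nor the array methods name RANKL. With no replicate there is no test, and 1 array a condition limits how precise any ratio can be. In such bulk RNA, fewer cells that express a gene and less RNA per cell cannot be told apart.

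Basement membranes are thin sheets of matrix on which epithelial and endothelial cells rest and which surround muscle and fat cells. Collagen IV chains join in threes and form one network, laminin trimers of an alpha, a beta and a gamma chain form another, and nidogen and perlecan, the product of *Hspg2*, link them. Collagen chains are hydroxylated and folded in the endoplasmic reticulum and leave it in large COPII-coated carriers. Macrophages are not the usual makers of this matrix, but they bind it through integrins and degrade it with proteases.

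*Flcn*, the siRNA target, had signals of 241 with scramble siRNA and 206 with *Flcn* siRNA at its brightest probe set, 209 and 145 at the next, and lay under the median of both arrays at the other. The first 2 were 1.17-fold and 1.43-fold lower, so *Flcn* itself did not reach the 1.5-fold used for calls below. *Gpnmb*, a known Tfe3 target, had 294 and 2500, and 11.5 and 61.3 at its other probe set. All 12 macrophage markers lay above the signal filter, with a summed signal of 28684 with scramble siRNA and 27894 with *Flcn* siRNA. Of these markers 1, the Fc receptor *Fcgr1*, was lower, by 2.72-fold. By 1.5-fold or more, 5.54% of all genes above the filter were lower and 5.87% were higher. Of 10 fibroblast, 10 endothelial and 8 epithelial markers, 1 in each list lay above the filter. Their summed signals were 69.0 and 54.1 for fibroblast markers, 51.5 and 71.8 for endothelial markers and 47.3 and 61.1 for epithelial markers, with scramble siRNA first. The markers above the filter were *Col1a2* (18.3 and 12.7), *Egfl7* (15.4 and 17.5) and *Epcam* (14.8 and 12.7), against medians of 12.8 and 13.6. *Pdgfra*, with 15.0 and 3.1, and *Krt8*, with 5.6 and 18.5, passed the median on 1 array but not the filter. The fibroblast genes *Dcn* and *Postn* and the endothelial genes *Pecam1* and *Tie1* lay under 3 signal units on both arrays. The part of these markers in the results below was not tested.

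*Col4a1* and *Col4a2* lie head to head on chromosome 8 and are known to share a promoter, so the sequence around their starts is shown. Each window runs from 250 bases before to 50 bases after the gene's start in RefSeq, build GRCm38.p6, and capitals mark the 78 bases that the windows share, read on opposite strands. The *Col4a1* window is chr8:11312777-11313076 on the minus strand, and the *Col4a2* window is chr8:11312555-11312854 on the plus strand.
Col4a1: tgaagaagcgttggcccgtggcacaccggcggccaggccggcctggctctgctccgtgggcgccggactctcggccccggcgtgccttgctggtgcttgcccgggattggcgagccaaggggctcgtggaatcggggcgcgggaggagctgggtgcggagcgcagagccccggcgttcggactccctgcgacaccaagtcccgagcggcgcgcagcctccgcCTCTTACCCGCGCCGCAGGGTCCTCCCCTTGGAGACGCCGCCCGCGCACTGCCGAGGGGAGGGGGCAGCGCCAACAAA
Col4a2: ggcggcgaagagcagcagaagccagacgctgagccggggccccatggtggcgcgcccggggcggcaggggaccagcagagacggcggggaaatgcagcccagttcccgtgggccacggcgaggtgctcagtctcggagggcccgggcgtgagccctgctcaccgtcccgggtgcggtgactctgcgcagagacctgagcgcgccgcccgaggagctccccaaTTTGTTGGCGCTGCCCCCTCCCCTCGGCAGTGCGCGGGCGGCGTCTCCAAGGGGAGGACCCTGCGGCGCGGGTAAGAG
The annotated start sites are 21 bases apart, at 11312826 for *Col4a1* on the minus strand and 11312805 for *Col4a2* on the plus strand. By these starts the 2 genes overlap at their ends. Each shared base lies at or after the start of one gene or the other, not in a gap between them. The *Col4a1* window holds 74.0% G and C, against a median of 52.7% over all 32851 windows of this length. The E-box CACGTG, which Tfe3 and related factors bind, and the M-box core TCATGTG were each searched on both strands and counted separately. Neither was found in the windows of the 7 genes that had one, which did not include *Lamc1*, while 7.15% and 3.77% of all windows hold them. The GC box GGGCGG was found in 6 of the 7, among them *Col4a1* and *Col4a2*, and in 35.7% of all windows. No match says only that these letters are not in these windows.

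Of the 8 genes, 3 lay above the signal filter, a geometric mean signal of 13.2 over both arrays, and of all genes 56.5% did. *Col4a1* was lower with *Flcn* siRNA, *Hspg2* was higher, and *Lamc1* differed little. By 1.5-fold or more, 1 of the 3 was lower and 1 was higher, where 5.54% of all 10285 genes above the filter were lower and 5.87% were higher. The other 5 genes lay under the filter, and 13 of the 19 probe sets had signals under the median of both arrays, so that no ratio is given for them. A signal under the median does not show that a gene is silent.

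**Figure D1:**
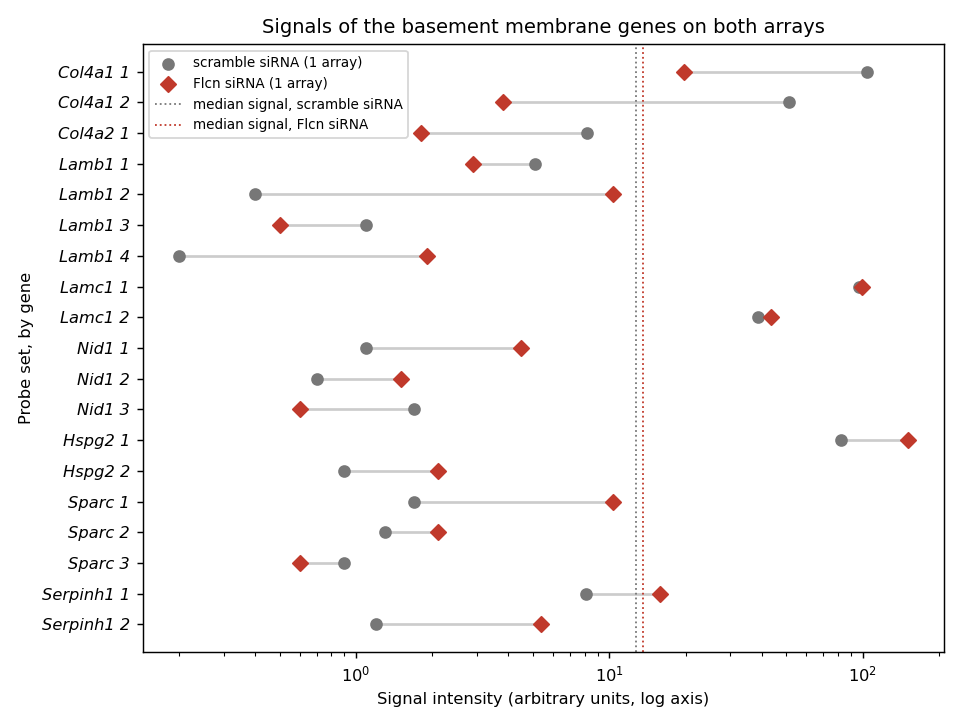
Signal intensity (log axis) of each of the 19 probe sets of the 8 genes on the scramble siRNA array (grey circles) and the *Flcn* siRNA array (red diamonds), 1 array each, numbered within a gene from the brightest; dotted lines are the array medians, 12.8 and 13.6. Both *Col4a1* probe sets lie far to the left with *Flcn* siRNA, both *Lamc1* probe sets hardly move, and most others lie left of both medians.

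*Col4a1*, which encodes the chain that together with the *Col4a2* chain makes the collagen IV of most basement membranes, had a signal of 104 with scramble siRNA and 19.8 with *Flcn* siRNA at probe set 1452035_at. This is a log2 ratio of -2.39, or 5.25-fold lower. At its other probe set, 1426348_at, the signals were 51.2 and 3.8. The second of these lies under the median of the *Flcn* siRNA array, so this probe set was at least 3.76-fold lower, a log2 ratio of at most -1.91. Both probe sets were thus lower with *Flcn* siRNA. The second passed the filter narrowly, at a geometric mean of 13.9 against 13.2, through its scramble siRNA signal alone. It therefore adds little to the first. Both probe sets were designed from the same source sequence and read the same 2 RNA samples, so they are not independent of each other. Among all genes called lower that had at least 2 probe sets above the filter, 221 in number, each such probe set was lower by 1.5-fold or more in 71, or 32.1%. Between probe sets of a gene, the SD of the log2 ratio had a median of 0.19 over 5034 genes, which is a technical spread and no replicate error.

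With signals under the median raised to it, 2 of the 10285 genes above the filter had a lower ratio than *Col4a1*, and 4 did when signals were raised only to 1. Among 2420 genes whose geometric mean signal lay within 2-fold of that of *Col4a1*, 7.89% were lower by 1.5-fold or more. Genes whose probe sets above the filter all had ratios of the same sign were then compared with *Col4a1*. By likeness of the floored log2 ratio over the 2 arrays, the nearest of these were *Isg20*, an interferon-stimulated exonuclease (-2.32), and *Sh2d6* (-2.29). Next came *Cox6a2*, a subunit of complex IV (-2.08), *Gbp8*, a guanylate-binding GTPase (at most -2.03), and *Tox2*, a nuclear factor (-2.00). With 1 difference per gene, this says no more than that their ratios are of like size.

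*Col4a2*, the partner chain, had signals of 8.2 with scramble siRNA and 1.8 with *Flcn* siRNA at its probe set 1424051_at. Both values lie under the array medians, so the chain that pairs with the *Col4a1* product was not measured well enough on either array for a ratio. Among the other collagen IV chains, *Col4a5* alone lay above the filter. Its signals were 769 with scramble siRNA and 588 with *Flcn* siRNA at the brighter probe set, a log2 ratio of -0.39, and 234 and 212 at the other, a log2 ratio of -0.14. *Col4a5* thus lay slightly below 0 at both probe sets and was not called lower. *Col4a6*, its neighbour on the X chromosome, had signals of 15.1 and 10.5. *Col4a3* and *Col4a4*, which encode chains found in the glomerular membrane, had 6.2 and 11.9, and 1.0 and 10.7. None of these 3 passed the filter.

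**Figure D2:**
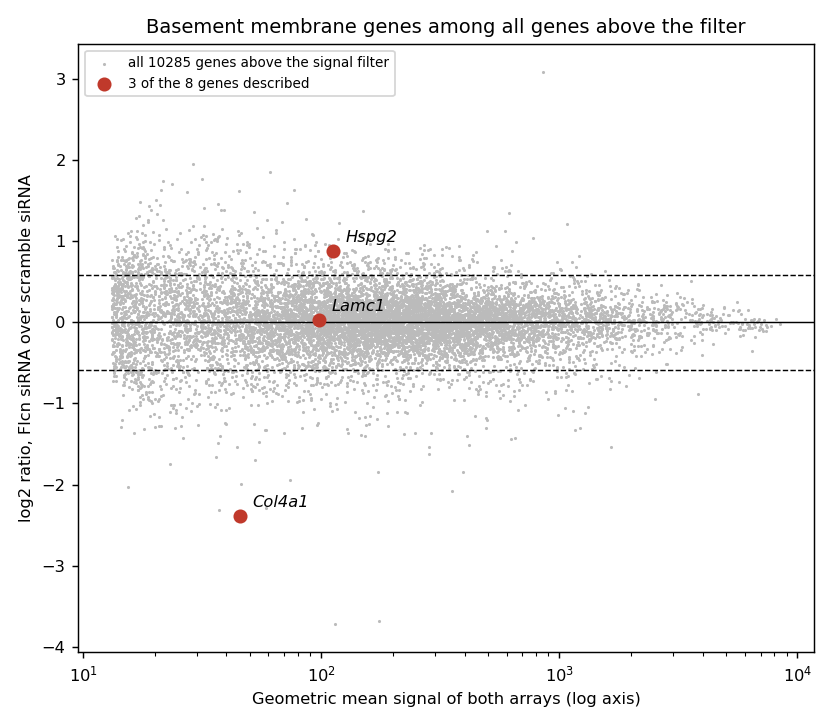
Log2 ratio (*Flcn* siRNA to scramble siRNA) against the geometric mean signal (log axis) for the 10285 genes above the filter (grey) and for *Col4a1*, *Lamc1* and *Hspg2* (red), from 1 array per condition; dashed lines mark 1.5-fold. *Col4a1* at -2.39 lies below nearly all genes, *Lamc1* at 0.03 lies in the middle, and *Hspg2* at 0.88 lies above the upper dashed line.

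*Lamc1*, the gamma chain of the common laminin trimers, had nearly equal signals on both arrays. They were 97.2 with scramble siRNA and 99.1 with *Flcn* siRNA at 1423885_at, a log2 ratio of 0.03. At 1423886_at they were 38.8 and 43.7, a log2 ratio of 0.17. The beta chain *Lamb1* lay under the median on both arrays at all 4 of its probe sets, which ran from 0.2 to 5.1 with scramble siRNA and from 0.5 to 10.3 with *Flcn* siRNA. Of the other laminin chains, 8 are analysed here, and *Lamc3*, a gamma chain with signals of 17.9 and 11.7, was the only gene above the filter. Its second value lies under the array median, so its log2 ratio was at most -0.40 and it was not called. With the floor at the 25th percentile or at 1 signal unit, 1 of these laminin chains was lower by 1.5-fold or more. No alpha chain passed the filter: *Lama5* had 13.0 and 12.4, and *Lama1* to *Lama4* lay under 6 on both arrays. At the probe sets used, *Lamc1* was therefore the only laminin chain with signals above the median on both arrays.

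*Hspg2* encodes perlecan, a large heparan sulfate proteoglycan. At 1418669_at its signal was 82.3 with scramble siRNA and 151.2 with *Flcn* siRNA, a log2 ratio of 0.88, or 1.84-fold higher. At its other probe set, 1418670_s_at, the signals were 0.9 and 2.1, under the median on both arrays. The probe sets therefore disagree on whether *Hspg2* is detected at all, although they were designed from the same source sequence. Such a split was common, since 39.2% of 6427 genes with at least 2 probe sets, at least 1 of them above the filter, had another under the median on both arrays. When the probe sets were averaged, the log2 ratio of *Hspg2* was 0.48, which is no longer 1.5-fold. Among 3771 genes whose geometric mean signal lay within 2-fold of that of *Hspg2*, 4.75% were higher by 1.5-fold or more.

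*Nid1*, which links laminin to collagen IV, lay under the median at all 3 probe sets, with signals from 0.7 to 1.7 with scramble siRNA and from 0.6 to 4.5 with *Flcn* siRNA. Its relative *Nid2* was above the filter at its probe set and was lower, with signals of 44.7 and 28.6, or 1.56-fold. That probe set is its only one. It names only *Nid2* in the platform annotation but is not unique by its suffix. With only unique probe sets, no lower gene is left among these basement membrane proteins. *Agrn*, which like *Hspg2* encodes a basement membrane heparan sulfate proteoglycan, had 14.7 and 23.8, or 1.62-fold higher, from a signal close to the median. Its other probe set had 0.6 on both arrays, and the log2 ratio over both probe sets, 0.39, does not reach 1.5-fold. *Col18a1*, the collagen that carries endostatin, had 74.7 and 103 at the brighter probe set, a log2 ratio of 0.47, and a log2 ratio of 0.68 at the other. *Fbln1*, an elastic fibre and basement membrane protein, had 16.7 and 13.7. Over the 30 basement membrane genes analysed beside the 8, which include *Col4a5* and the laminins, 6 lay above the filter. With 1 lower and 1 higher, their median log2 ratio was -0.34. All genes above the filter had a median of 0.01, with 5.54% lower and 5.87% higher. Basement membrane genes thus lay on both sides of 0, among the 8 as among the others.

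*Sparc*, a secreted protein that binds collagen, lay under the median at all 3 probe sets, from 0.9 to 1.7 with scramble siRNA and from 0.6 to 10.3 with *Flcn* siRNA. *Serpinh1*, which encodes the collagen chaperone Hsp47 of the endoplasmic reticulum, had signals of 8.1 and 15.9 at 1456733_x_at, above the median with *Flcn* siRNA only. At 1450843_a_at it had 1.2 and 5.4. Neither probe set passed the filter, and neither is unique to 1 transcript by its suffix. Neither *Sparc* nor *Serpinh1* therefore has a ratio here.

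Other genes that modify, fold and export collagen gave clearer signals, and several were lower with *Flcn* siRNA. Of 21 analysed, 15 lay above the filter, 5 were lower by 1.5-fold or more, none was higher, and the median log2 ratio was -0.13. Over all genes above the filter, 5.54% were lower and 5.87% were higher. *Sec24d*, a COPII coat subunit needed to export procollagen, had a signal of 666 with scramble siRNA and 253 with *Flcn* siRNA, or 2.63-fold lower. Its partner in the coat, *Sec23a*, had 440 and 264, or 1.66-fold lower. *Mia3*, which encodes the export receptor Tango1, lay below 0 at each of its 3 probe sets above the filter, with log2 ratios of -0.69, -0.45 and -0.40. *Sar1b*, the GTPase that starts coat assembly, had 915 and 887. *P4ha2*, a catalytic subunit of prolyl 4-hydroxylase, had 34.0 and 9.5, at least 2.50-fold lower. *P4ha1*, the other catalytic subunit measured, had 417 and 422, a log2 ratio of 0.02, and *P4hb*, the shared beta subunit, had 5164 and 4727. *P3h3*, a prolyl 3-hydroxylase relative, was 1.76-fold lower and *Fkbp14*, a prolyl isomerase, 1.65-fold lower, with signals of 84.2 and 47.8, and of 50.6 and 30.6. The other *Fkbp14* probe set had 4.9 and 9.8, under the median on both arrays, and with the probe sets averaged the log2 ratio was -0.32, which is not 1.5-fold. The lysyl hydroxylases *Plod1* and *Plod3* had log2 ratios of -0.04 and 0.16, and the highest ratio of the list was that of *Plod3*. A dimmer *Plod1* probe set, with 20.7 and 12.2, was at least 1.52-fold lower. The same split was seen for the prolyl 3-hydroxylase *P3h1*, which was not called lower although one of its probe sets had 41.0 and 19.8, or 2.07-fold lower. *Sec24d*, *Sec23a*, *P4ha2* and *P3h3* had 1 probe set each, so no other probe set bears on them.

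**Figure D3:**
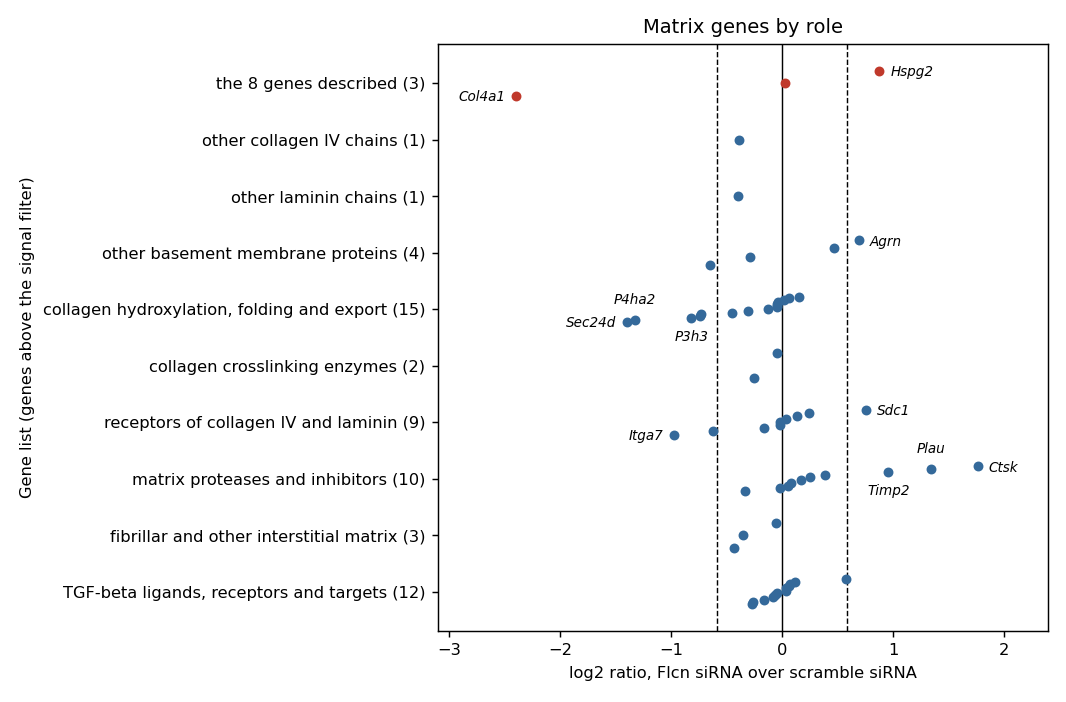
Matrix genes above the signal filter, arranged by role, plotted by log2 ratio (*Flcn* siRNA to scramble siRNA), with list sizes in brackets; a point stands for 1 gene measured on 1 array of each kind, dashed lines mark 1.5-fold, and a point with 1 signal under its array's median understates the change. In the folding and export list 5 points lie left of the left dashed line and none right of the other, while among proteases and inhibitors 3 lie right and none left. Over all genes above the filter, 5.54% were lower and 5.87% were higher by 1.5-fold or more.

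Receptors that bind collagen IV and laminin showed no common direction, with 9 of 15 above the filter, 2 lower, 1 higher and a median log2 ratio of -0.02. The shares over all genes above the filter were 5.54% lower and 5.87% higher. The laminin-binding integrin chain *Itga7* had signals of 102 and 52.0, or 1.96-fold lower, at its only probe set, which is not unique by its suffix. *Itga6*, another such chain, had 34.1 and 22.1, or 1.54-fold lower, and lay under the median on both arrays at its other probe set, so that the averaged log2 ratio was -0.27. Of the 2 lower receptors, 1 is left when only unique probe sets are used and 1 when probe sets are averaged. *Itgb1*, the beta chain with which both pair, had 330 and 338 at its brightest probe set and a log2 ratio of -0.20 at the next. A dimmer probe set that is not unique had 17.2 and 35.1, or 2.04-fold higher, so the *Itgb1* probe sets disagree. The proteoglycan *Sdc1* had 67.8 and 114, or 1.69-fold higher, and lay above 0 at each of its 4 probe sets above the filter, with log2 ratios from 0.40 to 1.07 at 3 of them and of at least 1.20 at the other. The collagen IV receptor chains *Itga1* and *Itga2* lay under the median on both arrays.

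Among matrix proteases and their inhibitors, 10 of 19 lay above the filter, 3 were higher by 1.5-fold or more, none was lower, and the median log2 ratio was 0.21. Over all genes above the filter, 5.87% were higher and 5.54% were lower. *Ctsk*, the collagen-degrading cathepsin of osteoclasts, had signals of 17.2 and 58.4, or 3.40-fold higher. *Plau*, the urokinase that activates plasminogen, had 386 and 979, or 2.54-fold higher, with a log2 ratio of 1.53 at its other probe set. *Timp2*, an inhibitor of metalloproteinases, had 31.9 and 62.0, or 1.94-fold higher, but its other probe sets above the filter had log2 ratios of at least 0.32 and of at most 0.05, and the average over all its probe sets was 0.23, which is not 1.5-fold. The gelatinases *Mmp2* and *Mmp9*, which cut collagen IV, did not pass the filter, with 9.3 and 15.3, and with 2.0 and 8.4. The lowest ratio was that of *Mmp19*, with 30.7 and 24.4 at the brighter probe set, while the other, with 20.9 and 9.0, was at least 1.54-fold lower.

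The remaining lists held no gene above the filter that was called at 1.5-fold. Over all genes above the filter, 5.54% were lower and 5.87% were higher, so with so few genes this says little. Of 5 crosslinking enzymes 2 lay above the filter, *Tgm2*, a transglutaminase (log2 ratio -0.26), and *Loxl3*, a lysyl oxidase relative (-0.04). Of 16 interstitial matrix genes 3 did, *Col1a2*, *Col6a2* and *Col5a3*, with signals of 18.3 and 12.7, 17.4 and 12.9, and 14.1 and 12.8, all close to the median. *Col5a1*, a fibrillar collagen chain, lay under the filter with 6.1 and 22.3 at its brightest probe set, at least 1.74-fold higher, and counts as 1 higher gene when no filter is used. Of 19 genes of the TGF-beta pathway, which is known to induce matrix genes, 12 lay above the filter with a median log2 ratio of -0.0042. The ligand *Tgfb1* had 148 and 160, the receptors *Tgfbr1* and *Tgfbr2* had log2 ratios of 0.07 and 0.03, and the highest and lowest were the inhibitor *Smad7* (0.58, just under 1.5-fold) and the target *Id3* (-0.27).

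The balance of calls over all genes depended on the scaling of the arrays. With the deposited scaling, 604 genes were higher and 570 lower, so that higher genes made up 51.4% of both. With both arrays set to the same median signal, 418 were higher and 810 lower, or 34.0% higher, while *Col4a1* had a log2 ratio of -2.48, *Hspg2* 0.79 and *Lamc1* -0.06, below 0 in place of above it. The numbers of lower and higher genes in every list named above were the same under both scalings.

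**Figure D4:**
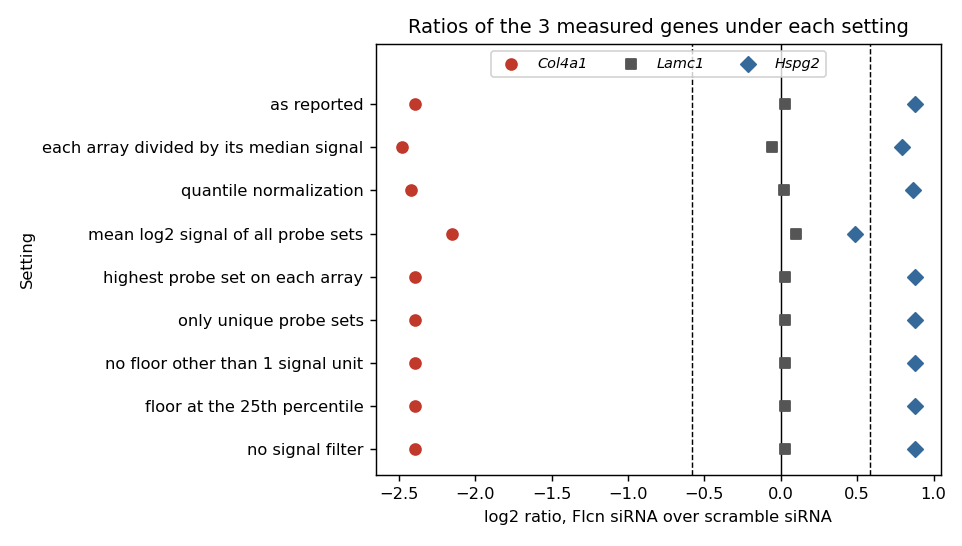
Log2 ratio of *Col4a1* (circles), *Lamc1* (squares) and *Hspg2* (diamonds) as reported and under 8 other settings, from 1 array per condition; dashed lines mark 1.5-fold. *Col4a1* stays between -2.48 and -2.15, and *Hspg2* lies inside the dashed lines, at 0.48, when its probe sets are averaged.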

How the data were processed

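Total RNA of RAW264.7 cells was labelled and hybridised to 2 Affymetrix Mouse Genome 430 2.0 arrays, 1 with scramble siRNA and 1 with *Flcn* siRNA. The authors used GCOS to turn the scans into values, and what they deposited is an intensity on a linear scale for each of 45101 probe sets, without calls of presence. How GCOS was set, the scaling target included, is not given in the sources used here. Trimmed by 2% at either end, both arrays have a mean of 100.001.

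The 64 control probe sets, 932 with several genes and 9160 not listed in the platform annotation were left out. Of the 34945 left, 34741 took their symbol from the RefSeq gene table of GRCm38.p6 through the Entrez ID. Where a gene had several probe sets, the brightest one, by geometric mean over both arrays, was used. Dimmer values than the median of an array, 12.8 and 13.6, were set to that median before the log2 ratio was taken, and genes under a geometric mean of 13.2 were not called. Calls are by size alone, 1.5-fold, and no p-value was computed. A ratio with 1 such raised value is given as a bound. A probe set is called unique when its name ends in _at with no letter before it. This goes by the suffix alone and treats _a_at, _s_at and _x_at alike. A probe set that is not unique by this rule still names only 1 gene in the platform annotation.

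The 8 genes and the 13 other lists, which hold 168 further genes and share some, were chosen with earlier results of these data known, and 6 listed genes are not analysed here. The genes named are the 8, the genes of each list past 1.5-fold or else its highest and lowest, and *Flcn* and *Gpnmb*. Also named are the 5 nearest to *Col4a1*, taken from genes whose probe sets above the filter agreed in sign. Other genes were picked with their values in view. Alternatives tried were 2 scalings, 3 ways to choose the probe set, 2 floors, 2 filters and a 2-fold threshold. The functions were tested on simulated data. The scripts ran in Python 3.11.15 with matplotlib 3.10.9, scipy 1.17.1, pandas 2.3.3 and numpy 2.4.6.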

Additional observations from a re-analysis of the deposited data

How the results depend on the processing

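The number of the 8 genes lower by 1.5-fold or more, which was 1, and the number higher, which was 1, were recomputed under 10 alternatives. The number lower was 0 with the filter at the 75th percentile, where none of the 8 passed and no median of their ratios could be had, and 1 under the other alternatives. The number higher was 0 with that filter, 0 with the mean log2 signal of all probe sets, and 0 with 2-fold in place of 1.5-fold. The mean over probe sets takes in a dim *Hspg2* probe set raised to the floor. The median log2 ratio of the genes above the filter, 0.03, ran from -0.06 with both arrays set to the same median signal to 0.15 with the mean of all probe sets. The log2 ratio of *Col4a1* ran from -2.48 to -2.15. Over the 21 genes followed, none with a ratio past 1.5-fold changed sign in 173 recomputed values. The number of folding and export genes that were lower was 2 with the filter at the 75th percentile and with 2-fold, and from 4 to 6 otherwise, and none was higher. Of the called genes of the other lists, *Agrn*, *Fkbp14*, *Itga6* and *Timp2* fell inside 1.5-fold with probe sets averaged, and *Nid2* and *Itga7* have no unique probe set. Of 58 uncalled genes of the lists, 7 had another probe set above the filter past 1.5-fold. No paired analysis was possible because each condition has 1 array.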
